A study of Mus musculus with 2 samples.

Results

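Box H/ACA small nucleolar RNAs (snoRNAs) are described here in activated mouse CD8+ T cells grown with bezafibrate or with its solvent. Their probe sets were taken as those with a platform gene symbol starting Snora. This gave 38 of the 33793 probe sets with a value, reading 35 snoRNAs. Of these, 28 probe sets named a single gene and form the main set, covering 26 snoRNAs. The other 10 probe sets also named another gene, in most cases the gene that hosts the snoRNA, and 9 snoRNAs were read only by such sets. Snora26, Snora57, Snora64 and Snora65, which the RefSeq annotation of assembly GRCm38.p6 also lists, were named by no probe set with a value. The symbol fixes the members, but the group was selected on the log2 signals of these same arrays, with its differences already known, so every count and median below is a description with no test.

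H/ACA snoRNAs fold into a pair of hairpins joined by a hinge and carry an ACA triplet near the 3′ end. With the proteins dyskerin, Nop10, Nhp2 and Gar1 they form particles that convert chosen uridines of ribosomal RNA to pseudouridine, and a few, such as Snora73 (U17), act instead in cutting the precursor of 18S ribosomal RNA. Most lie in introns of genes for ribosome and translation components, or of non-coding snoRNA host genes (Snhg), and are released when the spliced intron is trimmed, so their level depends on the host's transcription and on their own stability. Activated T cells make many ribosomes before and while they divide.

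The comparison asks which RNAs differ in T cells cultured with a fibrate, an agonist of the peroxisome proliferator-activated receptors (PPARs). Naive CD8+ T cells were stimulated with beads carrying antibodies to CD3 and CD28 in recombinant human interleukin-2 at 100 U/mL, and the expansion was taken to day 13. The treated culture had bezafibrate at 30 µM for its whole length and the control culture had DMSO, the solvent. The labels give no mouse strain, age or sex and no number of animals or cultures. There were 2 arrays, 1 per group, so no replicate spread exists, each difference is between arrays rather than conditions, and the number of arrays limits the precision.

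The deposited log2 signals ran from 0.75 to 12.68 on the DMSO array and from 0.79 to 12.64 on the bezafibrate array, and Pearson's r between the arrays was 0.993 across the 23521 single-symbol probe sets, which are not independent replicates. Of 9 listed markers of T cells in general and of CD8 T cells, 7 had a single-symbol probe set, Cd8a and Cd8b1 among them. Their log2 signals were 8.56 or more on both arrays, with log2 differences from −0.30 to −0.06. Defining markers of B cells (Ms4a1, Cd79a, Pax5) and natural killer cells (Ncr1, Klrb1c) were within background, as was Cd4 (3.88 with DMSO and 4.29 with bezafibrate). Background was taken as the 95th percentile of 1405 olfactory and vomeronasal receptor probe sets, 4.70 on the DMSO array and 4.68 on the bezafibrate array. Above it lay Cd68, a lysosomal protein of macrophages, at 6.91 and 6.92, and Csf1r, the macrophage growth factor receptor, at 4.73 and 4.80. Foxp3, of regulatory T cells, was above it too, at 4.95 and 5.02. The other listed macrophage and dendritic cell markers, Flt3 (4.51 and 4.18), Itgax (4.41 and 4.20) and Adgre1 (3.33 and 3.21), were within background. So was Cd40lg, of CD4 T cells, at 3.03 and 3.05. Red cell markers had no single-symbol probe set. The part of other cells in the snoRNA signals was not tested.

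Most H/ACA snoRNAs had a higher signal on the bezafibrate array. Of the 28 single-symbol probe sets, 22 were higher, 5 lower and 1 equal, with a median log2 difference (bezafibrate minus DMSO) of 0.36. Over all 23521 single-symbol probe sets the median was 0.00, with 44.3% higher and 50.3% lower. A difference of at least 2-fold upward was seen on 4 Snora probe sets, where 0.0978% of all single-symbol probe sets were that much higher, and 0 Snora probe sets were at least 2-fold lower (0.0893% of all). With signals within background raised to the background limit of their array, 3 remained at least 2-fold higher, since Snora2b then came to just under 2-fold. At a 1.5-fold limit 7 were higher and 0 lower, against 1.29% and 1.25% of all single-symbol probe sets. At a 3-fold limit 0 were higher and 0 lower, against 0.0128% and 0.00425% of all. The plot of both signals for every member shows the range, from 1.36 for Snora15 to −0.55 for Snora73b.

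**Figure D1:**
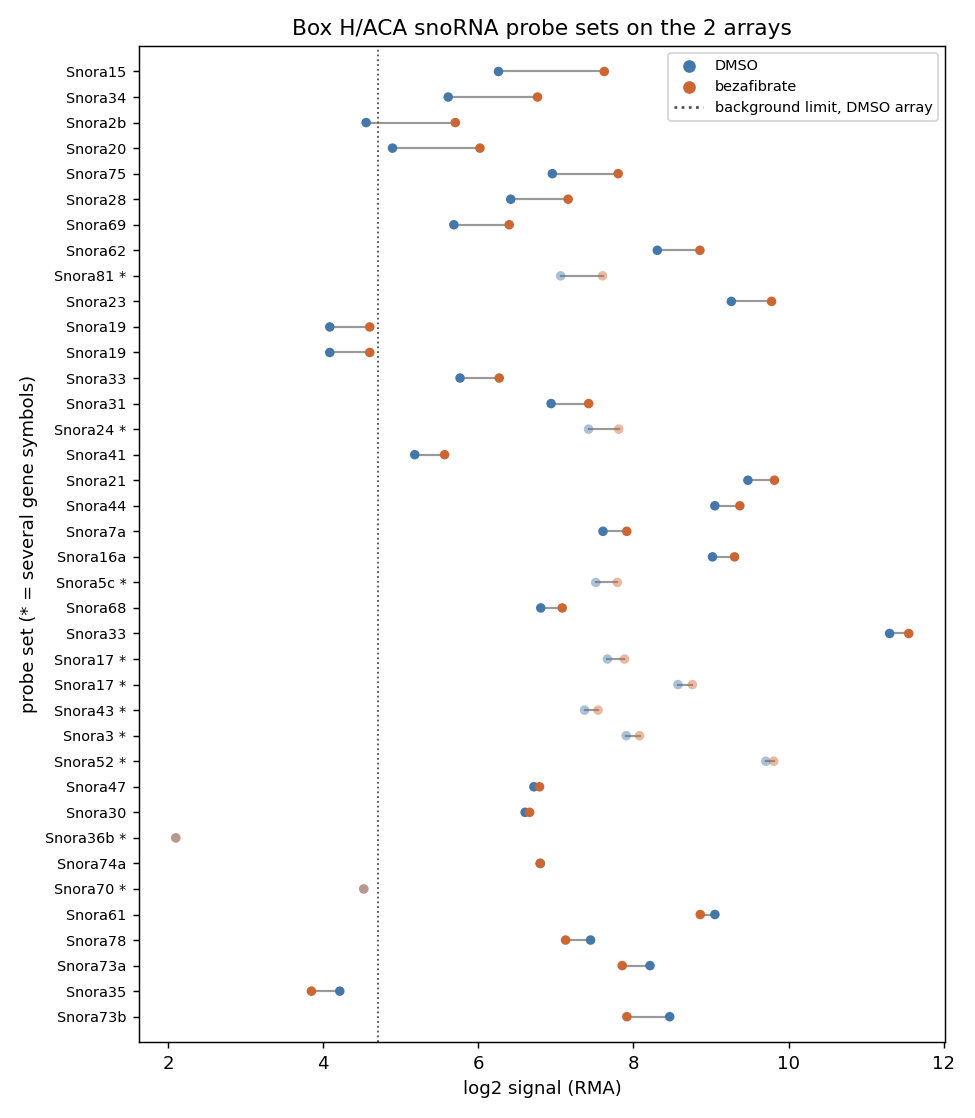
RMA log2 signal of each of the 38 Snora probe sets on the DMSO array (blue) and the bezafibrate array (orange), ordered by their difference; faded points and asterisks mark the 10 probe sets that name several genes, and the dotted line is the background limit of the DMSO array (4.70). Snora15 to Snora20 at the top are at least 2-fold higher with bezafibrate, and Snora73b at the bottom goes from 8.47 to 7.91.

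The 4 members past 2-fold came from 3 host genes. Snora15, which lies within Cct6a, a subunit gene of the chaperonin that folds actin and tubulin, had log2 signals of 6.26 with DMSO and 7.62 with bezafibrate, 2.57-fold higher. Snora20, within Tcp1, another subunit gene of the same chaperonin, had 4.89 and 6.02, 2.18-fold higher. These are the only 2 members hosted by chaperonin genes.

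Snora34 and Snora2b share Kansl2, a gene of the NSL histone acetyltransferase complex, as their host. Snora34 had log2 signals of 5.61 and 6.76, and Snora2b had 4.55 and 5.70. The log2 difference was 1.15 for Snora34. The control signal of Snora2b lay within background, so its measured difference, also 1.15, is not exact, and against the background limit in place of the control signal it was just under 2-fold. Snora20 was just above that limit on the DMSO array. So of the members past 2-fold, Snora15 and Snora34 were read clearly above background on both arrays.

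The promoters of these hosts are printed because their 4 snoRNAs had the largest differences, with that of Snhg3, host of the pair with the lowest differences above background, for contrast. Each is 300 bases from RefSeq (GRCm38.p6), with 250 before the annotated start and 50 from it on, 5′ to 3′ on the gene's strand. Kansl2 is at chr15:98534220-98534519 on the minus strand, Cct6a at chr5:129787106-129787405 on the plus strand, Tcp1 at chr17:12916079-12916378 on the plus strand and Snhg3 at chr4:132353637-132353936 on the minus strand. Capitals mark matches to any of the 4 motifs searched below; here all are the ETS element read on the opposite strand.
Kansl2: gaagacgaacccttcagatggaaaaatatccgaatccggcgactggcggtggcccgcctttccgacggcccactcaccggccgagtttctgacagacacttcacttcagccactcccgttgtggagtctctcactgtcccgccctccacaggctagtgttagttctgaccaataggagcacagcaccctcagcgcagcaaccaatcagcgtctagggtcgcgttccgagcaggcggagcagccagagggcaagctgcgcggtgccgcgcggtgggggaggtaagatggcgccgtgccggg
Cct6a: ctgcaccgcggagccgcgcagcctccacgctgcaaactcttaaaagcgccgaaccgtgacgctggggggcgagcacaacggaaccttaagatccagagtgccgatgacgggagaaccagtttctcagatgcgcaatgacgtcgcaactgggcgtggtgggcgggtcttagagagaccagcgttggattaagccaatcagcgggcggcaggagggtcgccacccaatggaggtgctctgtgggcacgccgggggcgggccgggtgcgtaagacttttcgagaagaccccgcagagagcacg
Tcp1: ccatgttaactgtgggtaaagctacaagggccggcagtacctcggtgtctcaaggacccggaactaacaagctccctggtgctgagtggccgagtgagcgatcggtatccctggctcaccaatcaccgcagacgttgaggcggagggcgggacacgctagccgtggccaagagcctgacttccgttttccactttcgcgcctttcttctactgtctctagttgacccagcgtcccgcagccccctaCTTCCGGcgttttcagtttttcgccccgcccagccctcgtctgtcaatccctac
Snhg3: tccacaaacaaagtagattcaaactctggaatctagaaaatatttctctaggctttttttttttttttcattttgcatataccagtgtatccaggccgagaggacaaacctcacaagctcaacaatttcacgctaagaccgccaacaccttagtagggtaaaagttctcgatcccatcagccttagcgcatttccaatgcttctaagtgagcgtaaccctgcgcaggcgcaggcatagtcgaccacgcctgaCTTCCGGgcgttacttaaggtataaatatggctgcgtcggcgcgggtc

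Both strands of these windows were searched for the half-site bound by PPARs and other nuclear receptors (AGGTCA), its direct repeat with 1 base between (AGGTCANAGGTCA, which contains the half-site), the E-box bound by Myc (CACGTG) and the ETS element (CCGGAAG). Of the 23 hosts of single-symbol members, 20 had a promoter in the table, with 22 windows in all. The half-site was in 1 of the 22 windows, that of Htr2c, and in 16.3% of all 32851 promoters, and the direct repeat was in 0 of 22 and in 0.0396% of all. The E-box was in 4 of 22 (Eif3a, Ipo7, Rpl23 and Snhg9) and in 7.15% of all, and the ETS element in 8 of 22 (Eef1b2, Rpl39, Rps2, Rpsa, Snhg3, Snhg9, Tcp1 and Zbed3) and in 8.86% of all. Tcp1, with a snoRNA more than 2-fold higher, and Snhg3, with both of its snoRNAs lower, each hold the ETS element at or beside the start, while the windows of Kansl2 and Cct6a hold none of the motifs. A match is a run of letters, not a measured binding site.

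Snora75, Snora28 and Snora69 lay between 1.5-fold and 2-fold higher. Snora75 is hosted by Ncl, which encodes the nucleolar protein nucleolin, and had log2 signals of 6.95 with DMSO and 7.80 with bezafibrate, 1.80-fold higher. Snora28, within the gene of the translation initiation factor Eif5, had 6.42 and 7.16, 1.67-fold higher. Snora69, within the ribosomal protein gene Rpl39, had 5.69 and 6.40, 1.64-fold higher. All 3 were above background on both arrays.

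The members hosted by ribosomal protein genes were mostly higher by smaller amounts. This grouping by the role of the host was made after the values were seen. On 7 of their 8 probe sets the bezafibrate signal was the higher one, and the median log2 difference was 0.32. Snora62, within the gene of the ribosomal protein Rpsa, had log2 signals of 8.31 and 8.86, and Snora21, within Rpl23, had 9.47 and 9.82. Snora7a, within Rpl32, had 7.61 and 7.91. Each of these 3 snoRNAs was thus higher with bezafibrate by less than 1.5-fold. The exception was Snora78, at 7.45 and 7.12, whose position lies within the spans of both Rps2 and the non-coding gene Snhg9. Translation factor genes held 3 snoRNAs, Snora28 (described above), Snora41 and Snora19. Snora41, within the elongation factor gene Eef1b2, had 5.18 and 5.57, and Snora19, within the initiation factor gene Eif3a, was within background on both arrays at 4.09 and 4.60.

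Outside these groups, Snora23, within Ipo7, which encodes a nuclear import receptor, had log2 signals of 9.26 and 9.78. Snora31, within Tpt1, the gene of the growth-related protein TCTP, had 6.94 and 7.42, a log2 difference of 0.48. Snora47 (6.72 and 6.79, within Zbed3) and Snora30 (6.60 and 6.66, within Srcap, a chromatin remodeller gene) were nearly level between the arrays. Snora35 lies within Htr2c, a serotonin receptor gene of neurons, and both were within background, at 4.22 and 3.85 for Snora35 and at 3.38 and 3.30 for Htr2c. Its log2 difference of −0.37 is therefore between background readings.

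Members of non-coding host genes were divided. Of the 6 probe sets whose only hosts are Snhg genes, 2 were higher, 3 lower and 1 equal, with a median log2 difference of −0.09. Snora73a and Snora73b, the U17 snoRNAs of 18S ribosomal RNA processing, share the host Snhg3 and were both lower. Snora73b had log2 signals of 8.47 with DMSO and 7.91 with bezafibrate, 1.47-fold lower, and Snora73a had 8.21 and 7.86, 1.28-fold lower. They are a near-identical pair, so their probe sets may read the same RNA in part. Snora74a, within Snhg4, had exactly 6.80 on both arrays; exact ties were found on 5.34% of all single-symbol probe sets.

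Snhg12 hosts 3 single-symbol members, which differed in direction. Snora44 had log2 signals of 9.05 and 9.37 and Snora16a had 9.02 and 9.30, whereas Snora61 had 9.05 and 8.86. Snord99, a box C/D snoRNA of the same host, had 9.52 and 10.19. The differences from 1 host transcript therefore ran from −0.19 to 0.67, with Snora61 alone below 0. In the same way Ncl holds Snora75 at 0.85 and the box C/D snoRNA Snord82 (11.08 and 11.13) at 0.05. In contrast, Snora34 and Snora2b of Kansl2 both had a log2 difference of 1.15, with the control signal of Snora2b within background. The near-identical pair of Snhg3 differed by 0.19 in log2 difference.

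Probe sets of the same snoRNA bear on how well a single difference is determined. Snora33, within the ribosomal protein gene Rps12, was read by 2 probe sets at very unlike signals, 5.76 and 6.27 on one and 11.30 and 11.55 on the other. Both were higher with bezafibrate, by 0.51 and 0.25. The 2 probe sets of Snora19 held identical values and are 1 measurement. Counted once, the median over members was 0.34.

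The 10 probe sets that also name another gene ran the same way at a smaller size. Of them 8 were higher, 0 lower and 2 equal, with a median log2 difference of 0.18. None was past 1.5-fold, against 1.29% higher and 1.25% lower of all single-symbol probe sets. For 10 probe sets a count of 0 is near those shares. Snora81 with Eif4a2, an initiation factor gene, was highest at 7.06 and 7.60. Snora24 with its host Snhg8 had 7.42 and 7.81, and Snora5c with Tbrg4 had 7.51 and 7.79. Snora17 and Snora43, read together with their host Snhg7 on 3 probe sets, had log2 differences of 0.22, 0.18 and 0.17. Snora3 with Rpl27a (0.17) and Snora52 with Rplp2 (0.10) were close to level. The equal pairs were Snora36b with Mir664, at 2.10, and Snora70 with Rpl10, at 4.52, both within background.

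The difference tended to be smaller at higher signal, though the relation was weak. Across the 28 single-symbol probe sets, which share the same 2 arrays, Spearman's rho of difference and mean log2 signal was −0.27 and Pearson's r was −0.23. Over the 25 of them with a mean above the median of named genes (4.86) the values were −0.40 for both. The 3 members past 2-fold other than Snora15 had mean log2 signals from 5.13 to 6.19, whereas the 4 members between 9 and 10 had differences from 0.28 to 0.52. In classes of mean signal 1 log2 unit wide, the Snora median exceeded that of the other probe sets in every class except 8 to 9. In that class, which holds Snora73a, Snora73b, Snora61 and Snora62, it was −0.27 against 0.02. With the class median of the other probe sets subtracted from each member, the median over members was 0.38. Within their own class, 15 of the 28 lay above the central 95% of the other probe sets and 1, Snora73b, below it. The 15 include both Snora19 probe sets, which hold identical values within background on both arrays.

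**Figure D2:**
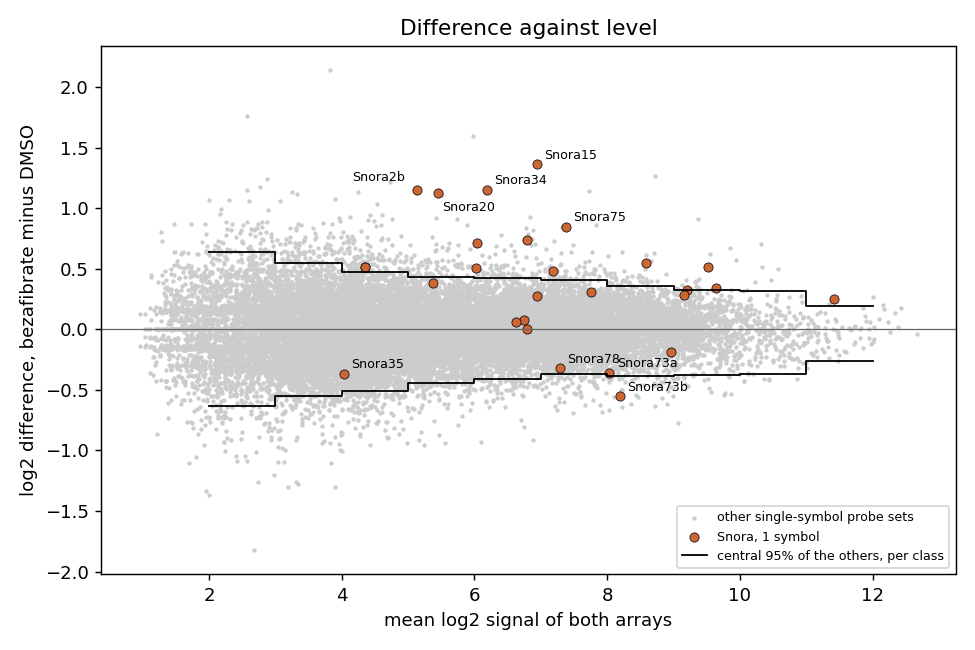
Log2 difference (bezafibrate minus DMSO) against the mean log2 signal of both arrays for the 28 single-symbol Snora probe sets (orange) and all other single-symbol probe sets (grey); black steps enclose the central 95% of the grey points in each class 1 log2 unit wide. Of the orange points 15 lie above the upper step and Snora73b lies below the lower one. The 15 include both points of Snora19, which coincide and are within background.

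Host genes spanned a narrower range of differences than the snoRNAs they hold. All 28 single-symbol members lay within the span of at least 1 annotated gene, 23 hosts in all, and 20 of these had a single-symbol probe set of their own. Among these 20 hosts 12 had a difference above 0 and 8 below, with a median log2 difference of 0.11. Their range was from −0.32 (Rpl32) to 0.34 (Snhg12). At a 1.5-fold limit 0 hosts were higher and 0 lower, against 1.29% and 1.25% of all single-symbol probe sets. For 20 genes a count of 0 is near those shares. The host table gives no strand for the snoRNAs, so a host is a gene whose span holds the snoRNA. Probes within a snoRNA also match the unspliced host transcript, and the mature snoRNA and unspliced RNA cannot be told apart.

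The contrast was wide at the chaperonin and Kansl2 loci. Cct6a had log2 signals of 9.56 and 9.70, a difference of 0.14 against 1.36 for Snora15. Tcp1 had 9.91 and 10.02, a difference of 0.10 against 1.13 for Snora20, and Kansl2 had 6.70 and 6.81, a difference of 0.11 against 1.15 for Snora34. Each of these hosts has 2 probe sets, and averaged over both the differences were 0.00 for Cct6a, 0.25 for Tcp1 and −0.01 for Kansl2. Host and snoRNA thus differed between the arrays by very unequal amounts at all 3.

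At ribosomal protein and related hosts the direction was often opposite. Rpl32 had log2 signals of 11.04 and 10.71 and a difference of −0.32 where Snora7a had 0.31. Rpl39 was at −0.28 where Snora69 was at 0.71, and Tpt1 at −0.27 where Snora31 was at 0.48. Rps12 at −0.18, Rpsa at −0.10 and Eef1b2 at −0.09 were also below 0 with snoRNAs above 0. Ribosomal protein genes have many near-identical processed copies in the genome, so readings of these hosts are uncertain.

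For Snhg3 the opposition ran the other way, since the host had log2 signals of 6.50 and 6.70 while both Snora73 forms were lower. Snhg4 was at 0.31 with Snora74a at 0.00, and Snhg9 at −0.26 with Snora78 at −0.32. Over the 23 members with a host value and a mean log2 signal above the median of named genes (4.86), 14 had a larger difference than their host. The median of snoRNA minus host was 0.48, with a range from −0.75 to 1.22. Spearman's rho between the difference of snoRNA and host was −0.12 over these 23 points, some of which share a host.

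**Figure D3:**
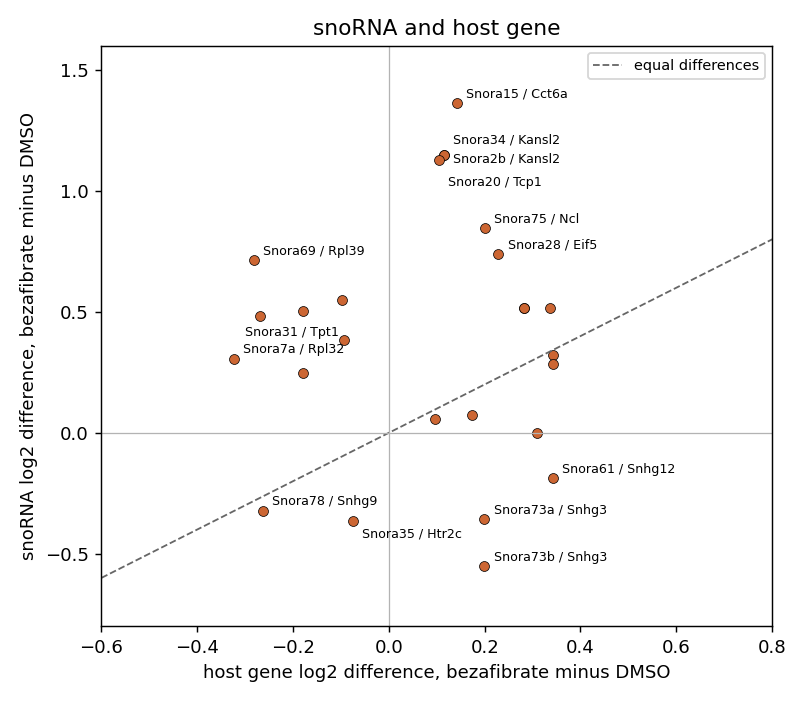
Log2 difference (bezafibrate minus DMSO) of each of the 26 single-symbol Snora probe sets whose host has a value, against that of the host gene's probe set with the highest mean signal; the dashed line marks equal differences. Hosts stay between −0.32 and 0.34, while the snoRNAs spread from −0.55 to 1.36.

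Most of the longest H/ACA RNAs were not higher with bezafibrate, a feature noticed in the data. By annotated length, 5 snoRNAs with a single-symbol probe set have at least 150 nucleotides. Of them 3 were lower (Snora73a and Snora73b, 205 nucleotides each, and Snora78, 157), 1 was equal (Snora74a, 198) and 1 was higher (Snora23, 184). The median log2 difference of these 5 was −0.32. Snora81, annotated at 164 nucleotides and read only together with Eif4a2, was higher by 0.54. Of the 18 single-symbol probe sets from 105 to 136 nucleotides, 17 were higher, with a median of 0.43, and the exception was Snora35 at background. The 5 probe sets annotated at under 100 nucleotides read 4 snoRNAs, of which 3 were higher (Snora19 within background) and Snora61 was lower; Snora19, Snora20 and Snora61 are listed at 56, 61 and 62 nucleotides, short for an H/ACA RNA. Spearman's rho of difference and length was −0.32 over all 28 and −0.03 over the 23 below 150 nucleotides. The long single-symbol members other than Snora23 lie within Snhg genes (Snora78 also within Rps2), but the shorter members of Snhg12 were higher in 2 of 3 cases. The parts of length and of host type were not tested.

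Other non-coding RNAs were set beside the H/ACA group, and the upward direction was not particular to it. Box C/D snoRNAs, which guide ribose methylation, had 44 of 47 single-symbol probe sets higher and a median log2 difference of 0.50. Of these, 19 were past 1.5-fold upward, against 1.29% of all single-symbol probe sets. Genes with a symbol starting Snhg had 14 of 18 probe sets higher, with a median of 0.22. MicroRNA genes (Mir) had 272 of 512 higher and 206 lower. Past 1.5-fold, 33 of the 512 were higher and 12 lower, against 1.29% and 1.25% of all single-symbol probe sets. The median log2 signal of the microRNA probe sets was within background, at 3.54 with DMSO and 3.50 with bezafibrate. The small Cajal body RNAs (Scarna), which guide modification of spliceosomal RNAs, had 3 of 6 probe sets higher and 3 lower. Both probe sets of Scarna17 were among the higher ones. Scarna8 (118 nucleotides) had 5.26 and 5.97, and Scarna6 (248 nucleotides) had 8.25 and 7.72. Terc, the telomerase RNA, which has an H/ACA domain and binds the same core proteins, was lower, at 6.99 and 6.66. Rpph1, the RNA of ribonuclease P, was lower too, at 10.13 and 9.60, and Rn7sk, the 7SK RNA that holds back transcription elongation, was level at 12.68 and 12.64. Scarna2 and Scarna10, annotated at 61 and 71 nucleotides, were lower, with log2 differences of −0.41 and −0.26. Snord17, annotated at 221 nucleotides, was higher by 0.56. Whether the annotated lengths are those of the full RNAs was not checked, and the part of length was not tested. The differences between these classes were not tested.

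**Figure D4:**
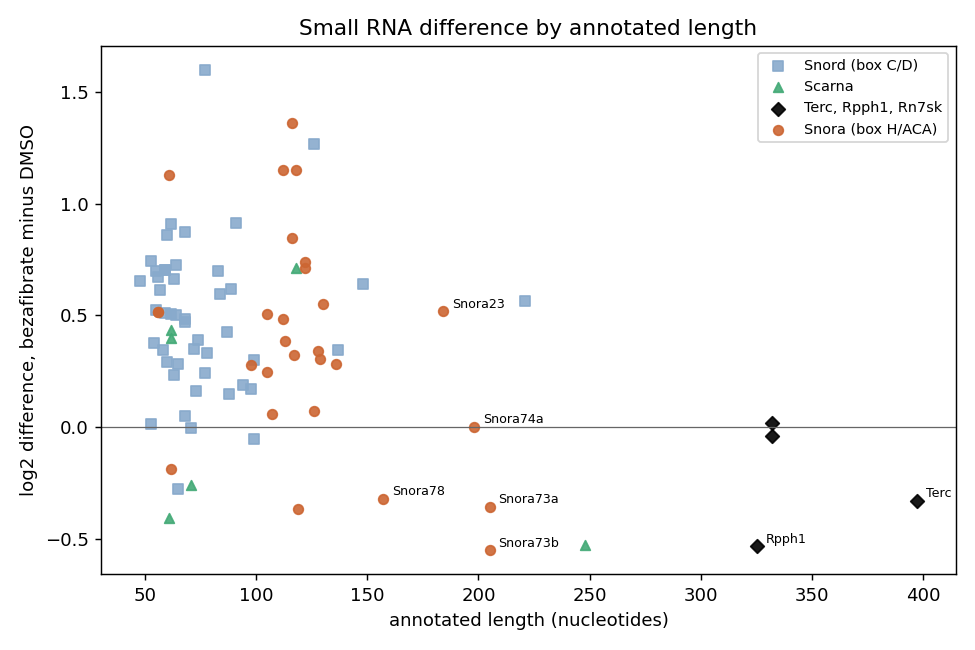
Log2 difference (bezafibrate minus DMSO) against annotated length in nucleotides for single-symbol probe sets of Snora (orange circles), Snord (blue squares), Scarna (green triangles) and Terc, Rpph1 and Rn7sk (black diamonds). Of the Snora points at 150 nucleotides or more only Snora23 lies above 0, and Terc and Rpph1 lie below 0.

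The RNA signals of the genes for the H/ACA particle proteins did not share the snoRNAs' direction. The 4 core protein genes had 2 on each side, and the median log2 difference was 0.00. Dkc1, which encodes the pseudouridine synthase dyskerin, had log2 signals of 8.76 and 8.78. Nop10 had 9.22 and 9.20, and Nhp2 had 8.48 and 8.27. Gar1, needed for release of the modified RNA, had the largest difference at 6.86 and 7.23, 1.29-fold higher. None of the 4 reached 1.5-fold, which 1.29% of all single-symbol probe sets did upward and 1.25% downward.

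The genes that assemble these particles were also split, 5 higher and 4 lower of 9, with a median of 0.00. Nolc1, a chaperone of snoRNA particles in the nucleolus and Cajal body, had log2 signals of 8.04 and 8.38, and Shq1, an early dyskerin chaperone, had 5.64 and 5.94. Naf1, which holds the place of Gar1 during assembly, had 7.77 and 7.57, and Coil, the Cajal body scaffold, had 5.29 and 4.96. The 12 pseudouridine synthases that work without a guide RNA had 7 higher and 5 lower with a median of 0.12, from −0.28 for Rpusd1 to 0.22 for Trub1. Ribosome biogenesis genes, 21 in number, had 12 above and 8 below 0 and a median of 0.02, led by Polr1a, the large subunit of RNA polymerase I, at 7.67 and 7.98. None of these genes was 1.5-fold different in either direction, against 1.29% higher and 1.25% lower of all single-symbol probe sets. In lists this short a count of 0 is near those shares.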

How the data were processed

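Total RNA (100 ng into cDNA synthesis) of 1 sample per group went through a whole-transcript amplification kit and biotin labelling before hybridisation, per the labels' protocols. The authors used Affymetrix Expression Console to make 1 log2 signal per probe set by RMA (submitters' processing notes, without versions), and deposited these. RMA equalises the arrays and shrinks differences at low signal, so differences are relative and those of dim probe sets understated. The table held 41801 probe sets, 8008 of them without values. Of the rest 23521 named 1 gene in the platform annotation and were used, 1814 named several and 8458 none.

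The difference was bezafibrate minus DMSO in log2 signal. Members were not filtered on level; 25 of 28 had a mean above 4.86, the median of named genes. Hosts, lengths and promoters came from RefSeq tables of GRCm38.p6; all 35 snoRNAs matched by gene number. A host was represented by its single-symbol probe set of highest mean. The named members were those past 2-fold, the largest and smallest differences, the highest signals, those sharing a host, the core proteins, and hosts of any named; others complete the account. Some items are not reported here. Members and lists were chosen with earlier results of these data known. Software was pandas 2.3.3, numpy 2.4.6, statsmodels 0.14.6, scipy 1.17.1 and matplotlib 3.10.9 under Python 3.11.15. The counts and medians were tested on simulated data.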

Additional observations from a re-analysis of the deposited data

How the results depend on the processing

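With 1 array per group, no interval of a difference can be given, and no paired analysis was possible because each group holds a single array. The count of 4 members at least 2-fold higher became 7 at a 1.5-fold limit, 0 at a 3-fold limit and 1 among the 16 members with a mean signal above the 75th percentile of named genes (Snora15). It was 3 with signals within background raised to the background limit (added after seeing the data), Snora2b being the one lost. It stayed at 4 with a floor at the median, by mean or by brighter array, after quantile normalization, with a loess curve on level subtracted, centred on housekeeping genes, with 1 or the mean of a gene's probe sets, with several-symbol probe sets included and with ties left out. The count at least 2-fold lower was 0 throughout. Under the settings that left the count at 4 or 1, and with the identical Snora19 probe sets counted once (added after seeing the data), the median log2 difference ran from 0.30 to 0.39, and the share higher, without that last alternative, from 68.8% to 82.1% (main 78.6%). The level-class value ran from 0.36 to 0.39, and snoRNA minus host from 0.33 to 0.48. The median of all single-symbol probe sets moved by less than 0.1 log2 under every scaling. Their share higher, 44.3% as deposited, depended on the scaling. It was 48.9% after quantile normalization, 51.2% with the loess curve subtracted and 52.2% when centred on housekeeping genes. Signal over background limits Snora2b, Snora19 and Snora35.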
